A study of Mus musculus with 12 samples.

Results

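The 84 non-targeting constructs are the negative controls of a pooled CRISPR library of 689 constructs. They were chosen by name alone, as every construct called Negative_control in all 3 deposited tables of reads, and they make up 12.2% of the constructs. The other 605 constructs target genes of checkpoint receptors, co-stimulatory receptors or T cell receptor (TCR) signalling. The libraries were carried by mouse CD8+ T cells of strain C57BL/6, transduced with lentivirus. Every construct bore 4 sgRNAs in tandem, and mKate2, a red fluorescent protein, marked transduced cells.

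The starting reference (SR) was a frozen portion of the transduced cells, and the tumour group (TIL) was CD8+mKate2+ cells sorted from tumours 7 days after transfer. Recipients had carried their tumours for 12 days at transfer, and each received 10000000 T cells of which 5 to 10% were mKate2+. A tumour gave 20000 to 40000 sorted cells, and 3 to 4 mice were pooled. The deposited tables carry the name Hepa1-6, a mouse hepatoma line. The cells of all groups were transduced. SR and TIL differ by transfer, growth in the host, sorting, added human Raji carrier cells and a 2-step instead of a direct PCR. These differences cannot be told apart here. The age of the mice and the source of Cas9 are not given in the sources used here. There were 3 SR and 3 TIL replicates, each read over 2 regions of the construct (spacers 1 and 2, and spacers 2 and 3), so 12 libraries. Nothing states that the SR replicates came from separate transductions, so p-values measure the spread between these pools.

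A non-targeting sgRNA is designed to match no site in the genome, so the cell that carries it is cut nowhere by design and serves as a neutral lineage. When few of the transferred cells found the population in a tumour, neutral lineages are lost or become abundant by sampling alone, and the process is called drift. In pooled screens the negative controls show how far abundance moves without a gene being disrupted. Antigen-driven expansion of a T cell clone adds to this, since a clone also keeps its own T cell receptor.

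The spacers of 6 constructs are shown because the results turn on them: the pair found in the tumours of 2 replicates, the pair that replicate 2 retained, the one retained from the lowest tertile of starting abundance, and one seen in a single region. They are written 5′ to 3′, with CpG dinucleotides in capitals.
Negative_control_19 spacer 1: gtataatagaCGcCGaCGca
Negative_control_19 spacer 2: tgCGtcaatCGcagCGtcta
Negative_control_19 spacer 3: gCGaggttCGcCGtCGtgat
Negative_control_19 spacer 4: gCGagaacCGgcattggatt
Negative_control_70 spacer 1: CGtacaaaCGCGggagatcc
Negative_control_70 spacer 2: atccCGtggCGatgtatCGa
Negative_control_70 spacer 3: cccctCGccataCGCGtaag
Negative_control_70 spacer 4: tgaacaCGataCGCGcaCGc
Negative_control_44 spacer 1: ccccCGtCGgaCGCGtatga
Negative_control_44 spacer 2: agCGcaCGttagacacCGCG
Negative_control_44 spacer 3: acCGttCGtaCGaccaatcc
Negative_control_44 spacer 4: agtCGatCGcactCGaccta
Negative_control_73 spacer 1: aCGgcttgccaatcCGtcCG
Negative_control_73 spacer 2: ataagCGCGgtataCGtacc
Negative_control_73 spacer 3: tCGCGacccCGatattcaCG
Negative_control_73 spacer 4: tagattggCGttCGgtCGtc
Negative_control_84 spacer 1: CGtcaCGgCGagCGaacccc
Negative_control_84 spacer 2: ttattaCGtgCGcCGgcCGg
Negative_control_84 spacer 3: CGgtacaCGacttCGccCGc
Negative_control_84 spacer 4: tacCGCGgtCGtttagatCG
Negative_control_66 spacer 1: CGtttaagttggtacccCGc
Negative_control_66 spacer 2: tatggcCGatgcaaCGcaac
Negative_control_66 spacer 3: gttcattgggtCGgCGtCGt
Negative_control_66 spacer 4: cCGggtattCGtgtggCGtc

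The 84 constructs hold 336 spacers of 20 bases, all different from each other. None is a gene-targeting spacer, but 181 also occur as fill in targeted constructs with fewer than 4 targets, and 83 of the 84 constructs share at least 1 spacer in this way. The pair of spacers read in a region was unique to its construct in both regions. Every non-targeting spacer has at least 2 CpG dinucleotides (mean 3.15 ± 0.71, SD over 336 spacers), whereas the 143 gene-targeting spacers have 0.83 ± 0.86 and 57 of them have none. Their GC contents are 57.7 ± 7.27% and 54.6 ± 9.98%. CpG content thus separates the spacer sets more than GC content does. Over the 80 spacer bases of a construct, GC content ran from 50.0 to 67.5% and had a Spearman's rho of 0.12 with the SR level across the 84 constructs. The 14 constructs found in both regions of a tumour sample had 58.8 ± 3.36% GC and the other 70 had 57.5 ± 3.54% (SD over constructs), so the ranges overlap.

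Values are given as CPM, the value per 1000000 scaled reads of a library, averaged over the regions of a sample, or as the deposited scaled reads where a region is concerned. The 12 libraries had totals of 8288404 to 25646820 scaled reads. The median non-targeting construct had 8112 to 21479 scaled reads in the 6 SR libraries and 0 to 3 in the 6 TIL libraries.

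In the transferred cells the non-targeting constructs were unevenly represented. Their mean SR level over the replicates ran from 25.2 to 23633 CPM, a 937-fold range, with a median of 806 CPM. The medians of the checkpoint, co-stimulatory and TCR signalling constructs were 1171, 1204 and 1248 CPM. In every SR replicate the non-targeting median lay below those of the other classes, and no test was run on the medians.

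Negative_control_19 was the most abundant of all 689 constructs in SR, at 13420, 27373 and 30106 CPM in replicates 1, 2 and 3. By itself it took 1.34, 2.74 and 3.01% of the SR reads, and 13.5, 24.9 and 26.9% of those of the class. The next was Negative_control_28, at 4023, 4381 and 4505 CPM, rank 27 in the library, and then Negative_control_2, at 3516, 4277 and 3843 CPM. At the other end, Negative_control_26 had 48.4, 7.66 and 19.6 CPM, Negative_control_78 had 65.6, 10.9 and 25.7 CPM and Negative_control_75 had 153, 56.7 and 66.4 CPM. All 3 low constructs were higher in SR replicate 1 than in the other replicates. Negative_control_26 was the lowest of the 689 and also had the highest SD over SR replicates (1.26 on the log2(CPM + 1) scale), against a median SD of 0.16 over the 84 constructs.

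After a week in the host the class held a smaller part of the reads. Non-targeting constructs took 9.96, 11.0 and 11.2% of the SR reads (10.7 ± 0.67%, SD, n = 3) and 5.44, 4.26 and 8.98% of the TIL reads (6.23 ± 2.46%, SD, n = 3). All TIL values lay below all SR values, a difference of -4.50 percentage points (two-sided exact permutation test over samples, p = 0.1, the smallest that 3 against 3 can give). This separation holds for the average of the regions. In region 2 alone TIL 3, at 10.3%, lay above SR 1, at 9.98%. There the difference was -4.16 points (same exact permutation test, p = 0.2). With the regions averaged, the ratio of TIL to SR share was 0.55, 0.39 and 0.80. For checkpoint constructs it was 1.47, 1.17 and 1.05, for co-stimulatory constructs 0.65, 0.97 and 1.18, and for TCR signalling constructs 0.44, 0.97 and 0.67. Non-targeting was one of the 2 classes below 1 in every replicate. Without Negative_control_19 the remaining 83 constructs took 8.62, 8.28 and 8.20% of the SR reads and 4.62, 4.25 and 6.80% of the TIL reads.

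Most non-targeting constructs were not detected in the tumours. A construct counted as detected in a tumour sample if its value was above 1000 scaled reads in region 1 and in region 2. By this rule 5, 2 and 9 of the 84 constructs were detected in replicates 1, 2 and 3. These are 5.95% (Wilson 95% interval 2.57 to 13.2%), 2.38% (0.66 to 8.27%) and 10.7% (5.74 to 19.1%), beside 11.3, 8.85 and 14.1% of all 689 constructs. Intervals cover counting error only. Over the 3 TIL samples, 70 of the 84 constructs were never detected by this rule, 12 were detected once, 2 were detected in a pair of samples and 0 in all of them. The 70 include Negative_control_60 and Negative_control_66, which exceeded the threshold in region 2 of TIL 3 only.

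Detected and undetected constructs were far apart. The highest undetected value was 48 and 18 scaled reads in regions 1 and 2 of TIL 1, and 295 and 8 in TIL 2. The lowest detected value was 154702 and 87918 scaled reads in TIL 1, and 416614 and 366915 in TIL 2. In TIL 3 the lowest detected values were 41334 and 6239 scaled reads, and undetected constructs reached 63 in region 1 and, leaving aside the pair described below that exceeded the threshold in region 2 only, 52 in region 2. In TIL 1 and TIL 2 the detected constructs held 99.97 and 99.95% of the reads of the class, and in TIL 3 83.6%, the rest being mostly that pair.

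Targeted constructs were detected in 12.1, 9.75 and 14.5% of cases in the 3 replicates. Non-targeting constructs differed from them by -6.11, -7.37 and -3.83 percentage points (mean -5.77 ± 1.79, SD, n = 3; two-sided exact sign-flip permutation test over replicates, p = 0.25, the smallest that 3 replicates can give). The direction was the same in all 3 replicates against the pooled targeted constructs, but not against each class. TCR signalling constructs were detected in 5.62, 8.99 and 14.6% of cases, below the non-targeting share in replicate 1. Co-stimulatory constructs were detected in 8.89, 7.78 and 11.1%, close to the non-targeting share in replicate 3, and checkpoint constructs in 15.5, 11.0 and 16.4%.

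Negative_control_19 was detected in replicates 1 and 3, at 8255 and 21827 CPM, and stood at 6.66 CPM in TIL 2. In replicates 1 and 3 it lay within 2-fold of its SR level, and in replicate 2 the most abundant construct of the transferred pool, at 27373 CPM, fell to 295 and 8 scaled reads in regions 1 and 2. Negative_control_70 was the other construct detected in 2 replicates, at 8137 CPM in TIL 1, 0.043 CPM in TIL 2 and 12295 CPM in TIL 3. Its SR levels were 1443, 1494 and 1679 CPM, in columns that carry no replicate number. Whether the starting level bears on the difference between the TIL replicates was not tested.

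Replicate 1 also retained Negative_control_50, Negative_control_83 and Negative_control_72. Negative_control_50 had 1829, 1213 and 1261 CPM in SR and 23563, 4.76 and 0 CPM in TIL replicates 1, 2 and 3. Negative_control_83 had 1260, 1348 and 1450 CPM in SR and 7759, 0.087 and 0.11 CPM in TIL. Negative_control_72 had 630, 631 and 559 CPM in SR and 6687, 2.23 and 0.066 CPM in TIL. All 3 were abundant in TIL 1 only.

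Replicate 2 retained 2 constructs of middling starting abundance and none of the more abundant ones. Negative_control_73 had 798, 854 and 782 CPM in SR and 0.27, 21919 and 0 CPM in TIL. Negative_control_44 had 863, 787 and 1012 CPM in SR and 0.24, 20614 and 0 CPM in TIL. Together they held 99.95% of the non-targeting reads of TIL 2.

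Replicate 3 retained the most. Beside Negative_control_19 and Negative_control_70 it held Negative_control_23 at 18079 CPM, against 0.35 and 0.043 CPM in TIL 1 and TIL 2 and 1480, 1325 and 1641 CPM in SR. Negative_control_67 had 5469 CPM there, with 0.48 and 0.087 CPM in TIL 1 and TIL 2 and 2937, 3427 and 3692 CPM in SR. Negative_control_46 had 5263 CPM, with 0.22 and 0.13 CPM in the other TIL replicates and 1233, 1149 and 1031 CPM in SR. These constructs were thus high in 1 TIL sample and near 0 in the others.

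Negative_control_84 had 4588 CPM in TIL 3, with 0.046 and 0 CPM in TIL 1 and TIL 2 and 551, 478 and 386 CPM in SR. Negative_control_51 had 3890 CPM, with 0.070 and 0.043 CPM in the other TIL replicates and 875, 682 and 698 CPM in SR. Negative_control_28, the second most abundant in SR, had 2368 CPM, with 0.59 and 0.35 CPM in the others. Negative_control_24 had the lowest detected level, 1286 CPM, with 0.17 and 0.13 CPM in the others and 1318, 1451 and 1271 CPM in SR. Of the 9 constructs of replicate 3, Negative_control_28 and Negative_control_19 therefore ended below their SR level in CPM, and Negative_control_24 close to it.

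High starting abundance did not guarantee a place in the tumours. Negative_control_2 had 0.24, 0.23 and 1.39 CPM in the TIL replicates, although it was among the most abundant of the class in SR. Negative_control_48, next after it in SR at 2726, 4157 and 3504 CPM, had 0.56, 0.12 and 0.15 CPM in TIL. The 14 constructs detected at least once had SR levels from 472 to 23633 CPM (median 1350), and the 70 others from 25.2 to 3879 CPM (median 682). Between 472 and 3879 CPM both kinds occurred.

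To set detection against starting abundance, the 84 constructs were divided into tertiles of 28 by their mean SR level. In the bottom tertile, from 25.2 to 570 CPM, 0, 0 and 1 constructs were detected in replicates 1, 2 and 3. A count of 0 of 28 allows a share of up to 10.7%, taken as 3 counts of 28. In the middle tertile, from 585 to 1185 CPM, there were 1, 2 and 2, and in the top tertile, from 1244 to 23633 CPM, 4, 0 and 6. The single case from the bottom tertile was Negative_control_84. Top minus bottom tertile was 14.3, 0 and 17.9 percentage points (mean 10.7 ± 9.45, SD, n = 3), above 0 in 2 of 3 replicates (two-sided exact sign-flip permutation test, p = 0.5, where 0.25 is the smallest possible). The mean was thus close to the SD over replicates, and 3 replicates cannot reach 0.05 in this test. Without replicate 2 it was 16.1 points and without replicate 3 it was 7.14.

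Targeted constructs in the same intervals of SR level were detected in 4.49, 2.56 and 1.28% of 156 constructs in the bottom interval. In the middle interval it was 9.03, 7.10 and 5.16% of 155, and in the top interval 17.7, 15.0 and 26.5% of 294. Top minus bottom was 13.2, 12.4 and 25.2 points, above 0 in 3 of 3 replicates (same exact test, p = 0.25). The targeted constructs were thus concentrated in the top interval, whereas the non-targeting ones were split evenly by construction. With the tertiles weighted equally, non-targeting constructs differed from targeted ones by -4.45, -5.83 and -0.28 points (mean -3.52 ± 2.89, SD, n = 3; exact sign-flip permutation test, p = 0.25), against -5.77 points without the weighting. Replicate 2 showed the widest gap in the top interval, 0 of 28 non-targeting against 44 of 294 targeted constructs.

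The change of each construct between SR and TIL was tested with limma on log2(CPM + 1), fitted and adjusted over all 689 constructs. Of the 84 non-targeting constructs 68 were lower in TIL (adjusted p under 0.05), or 81.0%, against 67.8% of the library. Higher were 0, and 0 had an unadjusted p under 0.05 in that direction, beside 0.435% of the library at the adjusted threshold. The 68 lay between -11.40 and -4.37 on the log2 scale. The other 16 were the 14 constructs detected in a tumour and both of those above the threshold in 1 region only, Negative_control_60 and Negative_control_66. Every non-targeting construct that stayed under the threshold throughout was therefore called lower, and none of the others was.

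The most lowered were Negative_control_48, with -11.40 ± 0.23 (SE, n = 3; limma adjusted p = 3.67e-07), Negative_control_2, with -11.30 ± 0.31 (limma adjusted p = 1.33e-06), and Negative_control_68, with -11.10 ± 0.13 (limma adjusted p = 1.29e-07). All 3 were among the 7 most abundant of the class in SR, and the size of a fall to near 0 is set by the starting level. For the detected constructs the SE was 3.10 to 4.37 on the log2 scale, since each was high in some TIL replicates and near 0 in others. Negative_control_70 had the smallest change, -1.71 ± 4.06 (SE, n = 3; limma adjusted p = 0.71). Without replicate 2 it was 2.68 and called higher (limma adjusted p = 0.00656), so 1 library pair decides whether a neutral construct is called raised.

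Most detected non-targeting cases lay above their starting share. They were kept for a high TIL value, and CPM sums to a fixed total. With most constructs near 0 in TIL, the others must rise on the whole, so the rise is no measure of expansion. In the 16 detected cases the log2 ratio of TIL to SR had a median of 2.62, 4.70 and 2.35 in replicates 1, 2 and 3, from -0.93 to 4.71 over all cases, and 13 were above 0. In detected targeted constructs the medians were 2.33, 2.97 and 1.13. Of the detected non-targeting cases 11 were at least 2-fold up in both regions, by the authors' deposited log2 ratios. That is 4, 2 and 5 of the 84 constructs in replicates 1, 2 and 3, or 4.76, 2.38 and 5.95%, beside 8.71, 7.55 and 6.1% of the library. In replicate 3 the shares of non-targeting and targeted constructs, 5.95 and 6.12%, were nearly equal.

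By the authors' deposited table, Negative_control_44 was 19.9- and 31.4-fold up in regions 1 and 2 of replicate 2, and Negative_control_73 25.05- and 24.7-fold. In replicate 1 Negative_control_50 was 12.5- and 9.16-fold up, Negative_control_72 8.02- and 10.6-fold, Negative_control_83 5.00- and 5.49-fold and Negative_control_70 4.57- and 5.05-fold. In the same deposited tables for replicate 3, Negative_control_84 was 11.7- and 9.39-fold up, Negative_control_23 10.4- and 9.20-fold and Negative_control_70 6.59- and 6.45-fold. Negative_control_51 was 4.98- and 4.94-fold up there and Negative_control_46 3.86- and 5.26-fold. These constructs were listed for being up in both regions, so the likeness of their regions is no result.

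The highest non-targeting value, as the authors' deposited mean log2 ratio of the regions, was 3.42 in replicate 1 (Negative_control_50), 4.64 in replicate 2 (Negative_control_44) and 3.39 in replicate 3 (Negative_control_84). Of the 605 targeted constructs 11, 4 and 10 exceeded it, or 1.82, 0.66 and 1.65%, up to 6.06, 5.93 and 4.74. All of these were among the 73, 59 and 88 targeted constructs detected in the replicate, and no test was made of the counts. The highest of 84 values was set against 605 constructs, and a larger set is likelier to hold a higher value by its size alone. The counts therefore do not place these targeted constructs beyond the neutral range.

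Across the 16 detected cases the level in TIL had a Spearman's rho of 0.20 with the SR level, and the log2 ratio had -0.63. The ratio has the SR level as its denominator and the cases were kept for a high TIL value. A negative rho is therefore built in and is no result about rarer constructs. Cases of the same replicate share a library, and Negative_control_19 and Negative_control_70 enter the 16 cases more than once. Retained constructs lay at levels from 1286 to 23563 CPM. The rho of 0.20 comes from the same selected and pooled cases, so it does not show how closely the level followed starting abundance.

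The reads of the class were concentrated on few constructs. The effective number of constructs, the inverse of the sum of their squared shares within the class, was 31.3, 13.5 and 11.9 in SR replicates 1, 2 and 3 and 3.73, 2.00 and 6.57 in TIL. Without Negative_control_19 it was 54.4, 45.3 and 46.1 in SR and 2.93, 2.00 and 6.15 in TIL. For the 605 targeted constructs the numbers were 382, 318 and 320 in SR and 61.7, 48.3 and 49.8 in TIL. The 5 most abundant non-targeting constructs held 99.97, 99.99 and 78.7% of the class's reads in the TIL replicates.

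The standardised variance of read share is the mean over constructs of the squared change in share divided by p(1 - p), where p is the share in SR. It is a usual measure of drift between samplings. Over the 84 constructs it was 0.18, 0.79 and 0.080 between SR and TIL in replicates 1, 2 and 3. Between SR replicates it was 0.0019 for replicates 1 and 2, 0.0024 for 1 and 3, and 0.00017 for 2 and 3. The SR pairs were read by direct PCR without carrier cells, so they give no background for the TIL read-out. The inverse of the variance between SR and TIL was 5.54, 1.26 and 12.5. It is no count of lineages, since Negative_control_73 and Negative_control_44 together held 99.95% of the class's reads in TIL 2. The mean variance of 0.35 rested on replicate 2, and without that replicate was 0.13.

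The log2 ratio of TIL to SR had an SD over the 84 constructs of 2.98, 2.66 and 3.91 in replicates 1, 2 and 3. Over the targeted constructs it was 4.44, 4.19 and 4.52. The non-targeting spread differed from it by -1.46, -1.52 and -0.61 (mean difference -1.20 ± 0.51, SD, n = 3; two-sided exact sign-flip permutation test, p = 0.25, the smallest possible). Among the undetected non-targeting constructs alone the SD was 1.06, 1.62 and 2.29. In replicate 3 these include Negative_control_60 and Negative_control_66, above the threshold in region 2 only. The highest undetected ratio was 3.31 there, against -5.63 and -3.11 in replicates 1 and 2, so 2.29 is not a spread of values near 0 alone. The spread thus depends on the share of constructs detected and is not independent of the detection gap. The class means of the log2 ratio were -8.65, -8.86 and -7.69 for non-targeting and -7.78, -7.96 and -7.34 for targeted constructs. The medians were -9.38, -9.41 and -9.17 against -9.58, -9.42 and -9.22. Since most constructs were near 0 in TIL, these medians mainly carry the SR level.

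Agreement between replicates was high in SR and lower in the change from SR to TIL. SR levels of the 84 constructs had a Spearman's rho of 0.96 to 0.98 between replicates. Pearson's r of the log2 ratio was 0.14 for replicates 1 and 2, 0.14 for 1 and 3 and -0.049 for 2 and 3. Spearman's rho was higher, at 0.74, 0.48 and 0.43. These correlations are across constructs, which share their libraries and are not replicates.

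The rank agreement followed starting abundance. Among the undetected constructs of each replicate the log2 ratio had a rho of -0.95, -0.93 and -0.87 with the SR level, because a value near 0 divided by SR is set by SR. Over the 70 constructs never detected, the ratios of replicates 1 and 2 had a rho of 0.90, those of 1 and 3 0.81 and those of 2 and 3 0.82. The undetected constructs of replicate 3, and so the 70, include Negative_control_60 and Negative_control_66, which were not near 0 in region 2. The retained constructs themselves were mostly different, but so few were retained that few could be shared. Replicates 1 and 3 shared Negative_control_19 and Negative_control_70, which are 40.0% of the 5 in replicate 1 and 22.2% of the 9 in replicate 3, where 10.7 and 5.95% of the class were detected in replicates 3 and 1.

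Replicates 1 and 2 shared 0 detected non-targeting constructs of 5 and 2, and replicates 2 and 3 shared 0 of 2 and 9. Targeted constructs of replicates 1 and 2 shared 29, or 39.7% of 73 and 49.2% of 59. Those of replicates 1 and 3 shared 16, or 21.9 and 18.2% of their lists, and those of 2 and 3 shared 14, or 23.7 and 15.9%. With 2 non-targeting constructs in replicate 2, an overlap of that size was not detectable, and the difference between the classes was not tested.

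The regions of a sample were also set against each other. In SR the regions correlated at r = 0.97, 0.93 and 0.95 over the 84 constructs (log2(CPM + 1)), with an SD of their difference of 0.35, 0.93 and 0.62. In TIL, r was 0.997 in replicate 1, 0.96 in replicate 2 and 0.89 in replicate 3. Spearman's rho between the TIL regions was 0.55, 0.35 and 0.61, and between the TIL levels of replicates 1 and 2, 1 and 3, and 2 and 3 it was 0.48, 0.52 and 0.44. By rank the regions of a TIL sample agreed about as weakly as the replicates. Most of these ranks lie among values near 0. In region 2 of TIL 2 and TIL 3, 65 and 72 of the 84 constructs were at 0. The rank correlations thus say little about the retained constructs. The low r of replicate 3 goes with the pair above the threshold in region 2 only. Negative_control_60 had 24 scaled reads in region 1 and 215961 in region 2, and Negative_control_66 had 2 and 28477. Of the 605 targeted constructs 20, 12 and 32 exceeded the threshold in 1 region only in replicates 1, 2 and 3, and of the 84 non-targeting ones 0, 0 and 2. Where either region sufficed, detection of non-targeting constructs differed from that of targeted ones by -8.50 percentage points, against -5.77 where both were needed.

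Spacer 2 of Negative_control_66 is also spacer 3 of a Havcr2 construct that had 243481 and 102135 scaled reads in the same sample, so both constructs carry it within region 2. Negative_control_60 shares spacers 1 and 4 with constructs that had 2 scaled reads in region 1 and 0 in region 2. Spacers 1 and 3 of Negative_control_66 are shared with constructs that had 3 scaled reads in region 1 and 0 in region 2. Both of the pair thus share spacers, but among the constructs that share them only the Havcr2 construct was abundant in that sample. The part of shared spacers in the result was not tested.

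Below the threshold the few reads followed the transferred pool. Undetected non-targeting constructs had a rho with the SR level of 0.68 and 0.63 in regions 1 and 2 of TIL 1, 0.56 and 0.37 in TIL 2, and 0.65 and -0.022 in TIL 3. In region 2 of TIL 3, 72 of 73 were at 0. Whether these reads came from cells of the tumour was not tested, so an undetected construct may be absent or rare.

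Region 1 of TIL 2 held 4 non-targeting constructs between 50 and 1000 scaled reads, Negative_control_19 at 295, Negative_control_50 at 219, Negative_control_56 at 185 and Negative_control_72 at 101. In region 2 of the same sample they had 8, 0, 1 and 1. Of these 4, 3 were detected in TIL 1, against 2 of the 78 constructs below 50 in that library. Among targeted constructs it was 15 of 37 against 26 of 502. In TIL 3, 1 of the 4 non-targeting and 10 of the 37 targeted constructs were detected, beside 10.7 and 14.5% of all constructs of these groups. Low values in this library thus went with abundance in TIL 1, and no such comparison with the constructs below 50 was made for TIL 3. The source of the low values was not tested, and none of them reaches the detection threshold.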

How the data were processed

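Reads per construct were measured in 3 SR and 3 TIL replicates over 2 regions. Per the file headers, the authors deposited a value per construct and library and log2 ratios of TIL over SR. The deposited values are a score: low values skip whole numbers (in the TIL libraries 5 to 13 of the whole numbers from 1 to 20 occur), so reads were scaled and rounded by the authors with a factor not given in the sources used here, and the depth in reads is unknown. The log2 columns, per the file headers the authors' ratios, were returned within 5.00e-05 with 10 added to both values. Bowtie2 is named in the submitters' processing notes, without a version or role. The SR columns carry no replicate number and were numbered by the table that holds them. Of the 690 constructs, 1 is not analysed here.

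Values were divided by library totals (CPM), averaged over regions and logged with 1 added, without a filter. limma 3.58.1 (R 4.3.3) compared 3 SR with 3 TIL samples over 689 constructs with Benjamini-Hochberg adjustment, and was tested on simulated data. Exact permutation tests over samples or replicates (Python 3.11.15) covered single values. The members, the threshold of 1000 scaled reads and the lists were chosen with earlier results of these data known. Constructs named were those detected or 2-fold up in a TIL replicate, the 3 highest and 3 lowest in SR, the 3 most lowered and any raised. Negative_control_56, Negative_control_60 and Negative_control_66 were named after their values were seen. Alternatives covered the pseudocount, region, scaling, filter, threshold, replicate block and each replicate left out.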

Additional observations from a re-analysis of the deposited data

How the results depend on the processing

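All 10 alternatives for constructs lower in TIL gave 65 to 77 of the class, and the 68 calls were all kept in 8 of the 10. The exceptions were region 2 only (66) and the filter at 100 CPM (65 of the 81 tested). The replicate block gave 68 lower and 0 higher. Without replicate 2, 1 construct, Negative_control_70, was called higher in place of 0, and its log2 change turned from -1.71 to 2.68 (-3.81 and -4.00 without replicates 1 and 3). Leaving out 1 replicate gave 70 to 77 lower and 0 to 1 higher. The SD of the log2 ratio over the class was 2.52 with a pseudocount of 10 CPM, against 3.19. Samples with the same number did not deviate together (correlations of deviations 0.075, -0.082 and 0.086 over 689 constructs). The other results kept their direction. The read share differed by -5.64 to -3.14 points, detection was 4.17 to 8.33%, the gap to targeted constructs -8.50 to -3.52 points and top minus bottom tertile 7.14 to 16.1 points. Without replicate 3 detection was 4.17%. Leaving out Negative_control_19 was chosen after seeing the data. Tests over 3 replicates could not pass at 0.05, so p-values say nothing about stability there, and the unknown scaling limits what a value near 0 means.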
